A study of Homo sapiens with 45 samples.

Results

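Untreated HAP1 cells carrying eS31 K113R were compared with untreated AAVS1 cells over the autosomal genes. The comparison took the 3 eS31 K113R and the 3 AAVS1 libraries labelled as untreated, which are 6 of the 45 libraries sequenced. Of 60676 genes in the count table, 55528 lay on an autosome and 10625 of these had enough counts to be tested. HAP1 is a near-haploid human line derived from KBM-7 cells, a leukaemia line. The eS31 K113R cells carry a lysine to arginine change in the ribosomal protein eS31, and the AAVS1 cells are named after a site in the PPP1R12C gene that serves as a neutral place to edit. Neither group received a drug. The series also holds RNF25 KO, GCN2 KO, RNF25 GCN2 DKO and ZNF598 KO lines, each untreated and treated with 5 uM azacytidine (azaC) for 4 h, as the eS31 K113R and AAVS1 lines were. Further AAVS1, RNF25 KO and GCN2 KO libraries were treated with 25 nM halofuginone for 4 h. They were used only as part of the fit to all 45 libraries. Whether a line is 1 clone or a pool is not given in the sources used here. Any difference between the lines is therefore one between these 2 edited lines, and what comes from the substitution and what comes from the history of each line cannot be told apart. In the untreated group, replicates 2 and 3 carry eS32 K223R in both their titles and their genotype fields, but the count columns assigned to them are named eS31_K113R, and both were placed by the column.

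The protein eS31 is made from the gene RPS27A as a fusion with ubiquitin, which is cut off to leave the ribosomal protein. Ribosomes that stall or collide are marked with ubiquitin by ligases such as ZNF598 and RNF25, and eS31 is a known substrate of RNF25. GCN2, encoded by EIF2AK4, is a kinase that can sense such ribosomes with the help of GCN1 and starts the integrated stress response, in which the transcription factor ATF4 raises genes of amino acid synthesis, tRNA charging and stress.

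Total counts in the 6 libraries were between 1229695 and 1895671, and the median count of a tested autosomal gene in a library was between 28 and 46. Single genes of low level therefore rest on few reads. Untreated AAVS1 replicate 2 stood apart: its counts fell by 0.465 on the log2 scale for each 10 points of GC content in the transcript, the steepest fall of the 45 libraries, and the next lowest slope was -0.189. Results that changed without this library are given with and without it. The label of the 3 untreated eS31 K113R libraries was compared with the azaC-treated libraries. Each of the 3 deviated from the mean of all untreated lines most like the azaC-treated eS31 K113R libraries did from theirs. The correlations across genes were 0.227, 0.378 and 0.332 for replicates 1, 2 and 3, against at most 0.0861, 0.0234 and 0.0232 with any other line. Of the 18 untreated libraries, 16 were most like their own line. RNF25 KO replicate 2 was most like RNF25 GCN2 DKO, and RNF25 GCN2 DKO replicate 3 most like RNF25 KO.

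At an adjusted p under 0.05, 128 autosomal genes were higher and 40 were lower in eS31 K113R cells than in AAVS1 cells. These 168 genes are 1.58% of the 10625 tested, with 1.2% higher and 0.376% lower. The median log2 fold change of all tested autosomal genes was 0.03. With the replicate number as a block, 201 genes were higher and 88 lower, 2.72% of those tested, and all 168 remained. With offsets corrected for GC content as well, 185 were higher and 121 lower. Without eS31 K113R replicate 1, 100 genes passed, of which 89 were among the 168. Without AAVS1 replicate 2, 82 genes passed as higher and 33 as lower, and 92 of these 115 were among the 168. For 164 of the 168 genes the 3 eS31 K113R libraries and the 3 AAVS1 libraries did not overlap, a pattern that 12.1% of all tested autosomal genes showed. On the X chromosome, which is not described further, 36.1% of 415 tested genes passed.

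The differences were large where they passed, but they were measured in the same libraries that selected the genes. The genes that were higher had a median fitted log2 fold change of 2.13, and 68 of the 128 were fitted at more than 4-fold. Their median level was 27.2 CPM (counts scaled to a common library size) in eS31 K113R cells and 4.54 CPM in AAVS1 cells. The genes that were lower had a median of -1.62, and 16 of the 40 were fitted at more than 4-fold. Their median level was 8.74 CPM in eS31 K113R cells and 30 CPM in AAVS1 cells. In the azaC-treated libraries of both lines, the medians of the same genes were smaller, 1.57 for the higher and -1.09 for the lower set. In 9 genes no AAVS1 library had a count and in 3 genes no eS31 K113R library had one, so part of the set was read in 1 line only. For such genes the counts do not fix the size of the change, and it is given against a floor of 3 counts over the group without reads. BMP7, fitted at a log2 fold change of 4.79, was 3.33-fold above that floor. Counting error in the group with reads is not covered by such values. In bulk RNA, fewer cells that express a gene and less RNA of it per cell cannot be told apart. Protein-coding genes made up 96.9% of the higher and 80.0% of the lower set, against 91.8% of all tested.

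By the smallest adjusted p, the largest change and membership in the gene lists, 46 passing genes were named, 29 higher and 17 lower. For 23 of the 46, the call held whichever of the 6 libraries was left out. Of these 23, the genes reported here are described first. Fits that left out a library kept the rest of the series. A fit to the 6 libraries alone kept 36 of the 168 genes, 33 higher and 3 lower. In it CTDSPL, OCIAD2, CCND2, NQO1, CHRM3, CTGF, S100A6, CRABP1, CWF19L1, CADM1, PDCL3P4 and AC120036.2 passed. GDI2, CHN1, HOXD13 and ATG16L2 did not (adjusted p = 0.0601, 0.0601, 0.0612 and 0.0658). MB21D1, LRRC7, H2AFY2, ALX4, TFPI2 and PRDM16 were not tested in that fit.

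The promoters of 4 genes are shown because these genes had, for each direction, the smallest adjusted p among the genes whose promoter could be shown from the RefSeq promoter table. Of the 168 genes, 127 had an entry there. Each sequence runs 5′ to 3′ on the gene's strand from 250 bases before to 50 bases after the transcription start, in GRCh38.p14, with CG dinucleotides in capitals. These are positions where cytosine can be methylated, and no methylation was measured here. OCIAD2 was higher, its window is chr4:48906779-48907078 on the minus strand, and it holds 12 CG dinucleotides. NQO1 was higher, its window is chr16:69726511-69726810 on the minus strand, and it holds 14. GDI2 was lower, its window is chr10:5813385-5813684 on the minus strand, and it holds 31. CHN1 was lower, its window is chr2:175005332-175005631 on the minus strand, and it holds 36.
OCIAD2: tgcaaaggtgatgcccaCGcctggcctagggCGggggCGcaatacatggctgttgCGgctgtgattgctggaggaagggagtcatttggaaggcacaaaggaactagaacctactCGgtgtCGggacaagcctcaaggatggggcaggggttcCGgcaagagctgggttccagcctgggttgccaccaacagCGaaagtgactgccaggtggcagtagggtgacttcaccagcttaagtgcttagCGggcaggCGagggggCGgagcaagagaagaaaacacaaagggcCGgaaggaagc
NQO1: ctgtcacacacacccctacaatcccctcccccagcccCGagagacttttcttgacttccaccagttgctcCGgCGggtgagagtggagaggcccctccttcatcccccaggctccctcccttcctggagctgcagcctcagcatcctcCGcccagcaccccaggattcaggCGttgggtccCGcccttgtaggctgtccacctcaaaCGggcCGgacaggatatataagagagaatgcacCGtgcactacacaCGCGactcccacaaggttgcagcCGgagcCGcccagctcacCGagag
GDI2: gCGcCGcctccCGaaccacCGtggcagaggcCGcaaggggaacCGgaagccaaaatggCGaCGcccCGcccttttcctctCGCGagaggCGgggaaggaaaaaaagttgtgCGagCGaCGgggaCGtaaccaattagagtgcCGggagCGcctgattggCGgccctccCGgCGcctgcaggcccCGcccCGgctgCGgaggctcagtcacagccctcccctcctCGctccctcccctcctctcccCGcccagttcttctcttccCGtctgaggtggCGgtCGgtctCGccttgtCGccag
CHN1: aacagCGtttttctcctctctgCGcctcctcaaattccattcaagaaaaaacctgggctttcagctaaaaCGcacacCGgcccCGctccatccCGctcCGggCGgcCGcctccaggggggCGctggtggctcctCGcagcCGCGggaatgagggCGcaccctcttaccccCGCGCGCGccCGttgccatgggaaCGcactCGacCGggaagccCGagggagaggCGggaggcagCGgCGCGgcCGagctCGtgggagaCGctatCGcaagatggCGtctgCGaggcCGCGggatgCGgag

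Among the smallest adjusted p values were those of genes that AAVS1 cells barely expressed. CTDSPL, a phosphatase of the small C-terminal domain family on chromosome 3 at 37861960-37984469 (GRCh38, GENCODE 29), had 52.7, 45.1 and 38.4 CPM in eS31 K113R cells and 3.44, 1.996 and 0.642 CPM in AAVS1 cells. Its log2 fold change was 4.51 ± 0.38 (SE; adjusted p = 2.11e-11), and every eS31 K113R library was above every AAVS1 library. OCIAD2, on chromosome 4 at 48885019-48906937, had 25.2, 23.2 and 33.0 CPM in eS31 K113R cells and 1.72, 0 and 0 CPM in AAVS1 cells. With only 2 counts in the AAVS1 libraries, the ratio of summed counts was 63.3 (95% counting interval 17.1 to 529), and the adjusted p was 4.79e-09.

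Other untreated lines show on which side these levels were unusual. OCIAD2 averaged 52.7, 36.1, 47.6 and 30.9 CPM in RNF25 KO, GCN2 KO, RNF25 GCN2 DKO and ZNF598 KO cells. CTDSPL averaged between 39.8 and 49.9 CPM in those 4 lines. AAVS1 was thus the line that stood apart for both genes. Against the mean of the 4 knockout lines, the log2 fold change of CTDSPL was 0.01 in eS31 K113R cells (adjusted p = 0.999) and -4.50 in AAVS1 cells (adjusted p = 1.58e-12). For OCIAD2 it was -0.59 in eS31 K113R cells (adjusted p = 0.298) and -6.33 in AAVS1 cells (adjusted p = 4.94e-12). These contrasts share libraries with the main one, so their values are set side by side only. In the untreated lines, 161 autosomal genes (1.52%) passed for eS31 K113R against the 4 knockout lines and 124 (1.17%) for AAVS1 against them. With the replicate block these counts were 254 and 212.

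**Figure D1:**
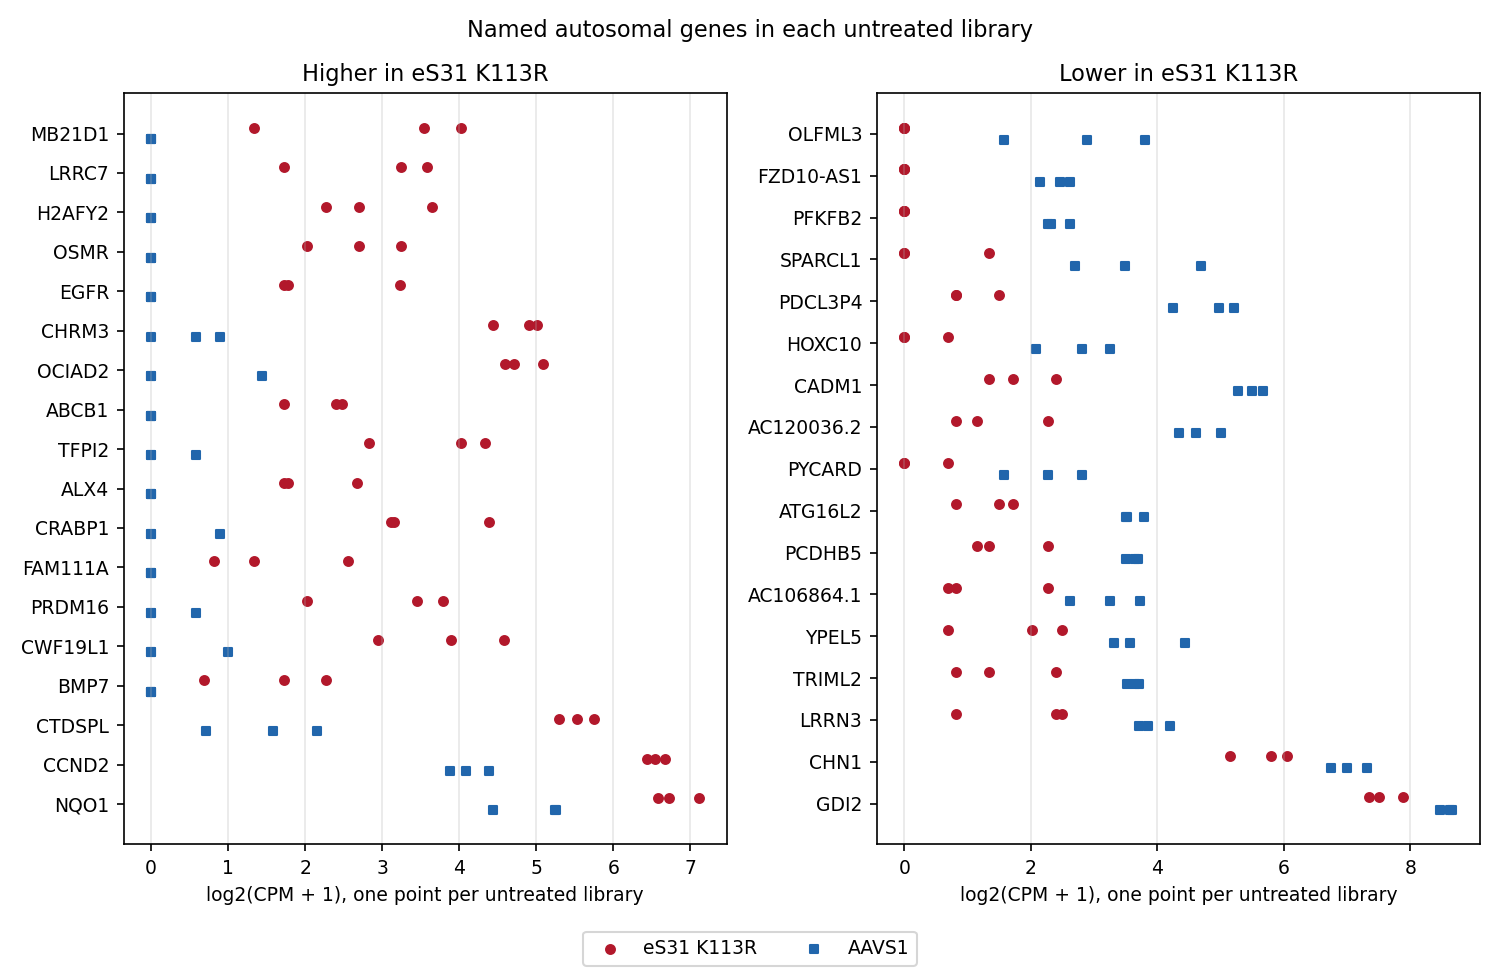
Level of the named genes of largest change or smallest adjusted p in each untreated library, as log2(CPM + 1) on the horizontal axis, with eS31 K113R as red circles above AAVS1 as blue squares. No gene drawn has overlapping groups, and several AAVS1 values on the left and eS31 K113R values on the right lie at 0.

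CCND2, or cyclin D2, which drives cells from G1 into S phase, had 101, 85.3 and 92.1 CPM in eS31 K113R cells and 13.8, 19.96 and 16.1 CPM in AAVS1 cells. The groups lay far apart, with a log2 fold change of 2.45 ± 0.27 (adjusted p = 2.89e-08). It lies on chromosome 12 at 4273772-4305350. Among the other lines it averaged 81.9 CPM in GCN2 KO cells, 34.8 CPM in RNF25 KO cells, 41.3 CPM in RNF25 GCN2 DKO cells and 16.2 CPM in ZNF598 KO cells. NQO1, a quinone reductase and a classic target of the transcription factor NRF2, had 138, 105 and 94.4 CPM in eS31 K113R cells and 20.7, 36.9 and 37.2 CPM in AAVS1 cells. Its log2 fold change was 1.80 ± 0.21 (adjusted p = 1.52e-07), and the groups did not overlap. It averaged 103 CPM in RNF25 KO cells and 20.7 CPM in ZNF598 KO cells, against 31.6 CPM in AAVS1 cells. Of its exon length, 17.7% is shared with a gene on the opposite strand.

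Receptors and secreted proteins were among the largest increases. CHRM3, the M3 muscarinic acetylcholine receptor, had 29.04, 31.1 and 20.7 CPM in eS31 K113R cells and 0.861, 0.499 and 0 CPM in AAVS1 cells. The ratio of summed counts was 64.4 (95% counting interval 17.4 to 538; adjusted p = 2.11e-05). It averaged 8.92 CPM or less in each knockout line, and eS31 K113R cells were above the mean of those lines by a log2 fold change of 2.31 (adjusted p = 0.00025). TFPI2, a secreted serine protease inhibitor from an imprinted region, had 15.3, 6.09 and 19.2 CPM in eS31 K113R cells and 0, 0.499 and 0 CPM in AAVS1 cells. It passed at an adjusted p of 0.00032 and averaged between 0.192 and 2.91 CPM in the 4 knockout lines. CTGF, now CCN2, a matrix-associated protein induced by growth factors and YAP, had 21.4, 14.0 and 40.7 CPM in eS31 K113R cells and 2.58, 2.99 and 3.21 CPM in AAVS1 cells. Its log2 fold change was 3.05 ± 0.54 (adjusted p = 0.000203). The 3 eS31 K113R libraries differed widely from each other but all lay above AAVS1.

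Nuclear and intracellular regulators followed. HOXD13, a homeobox factor of limb and tail patterning, had 32.9, 27.4 and 19.2 CPM in eS31 K113R cells and 8.61, 3.49 and 6.42 CPM in AAVS1 cells (log2 fold change 2.16 ± 0.39, adjusted p = 0.000263). S100A6, a calcium-binding protein, had 42.0, 43.3 and 48.3 CPM in eS31 K113R cells and 10.3, 4.49 and 11.6 CPM in AAVS1 cells (log2 fold change 2.38 ± 0.36, adjusted p = 1.47e-05). Neither gene had overlapping groups. CRABP1, which binds retinoic acid in the cytosol, had 19.9, 7.92 and 7.67 CPM in eS31 K113R cells and 0.861, 0 and 0 CPM in AAVS1 cells (adjusted p = 0.00331). An opposite-strand gene shares 47.2% of its exon length, and the counts may hold reads of both. PRDM16, a zinc-finger transcription regulator, had 3.06, 12.8 and 9.97 CPM in eS31 K113R cells and 0, 0.499 and 0 CPM in AAVS1 cells (adjusted p = 0.00265). CWF19L1 had 22.9, 6.70 and 13.8 CPM in eS31 K113R cells and 0, 0.998 and 0 CPM in AAVS1 cells (adjusted p = 0.000547). The small nucleolar RNA SNORA12 lies inside CWF19L1 and also passed, with 43 counts in eS31 K113R cells and 2 in AAVS1 cells, so reads of the pair may not be separate.

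For 4 further genes, no AAVS1 library had a read. MB21D1, now CGAS, the sensor of DNA in the cytosol, had 10.7, 15.2 and 1.53 CPM in eS31 K113R cells. Against a floor of 3 counts over the AAVS1 libraries it was 15.2-fold higher (adjusted p = 0.00105). LRRC7, a scaffold protein of synapses, had 2.29, 10.97 and 8.44 CPM in eS31 K113R cells and was 11.8-fold above that floor (adjusted p = 0.00518). H2AFY2, now MACROH2A2, a histone variant linked to silent chromatin, had 3.82, 5.48 and 11.5 CPM in eS31 K113R cells. It was 10.7-fold above that floor (adjusted p = 0.00463). ALX4, a homeobox factor, had 2.29, 2.44 and 5.37 CPM in eS31 K113R cells and was 5.18-fold above that floor (adjusted p = 0.00211). Levels in eS31 K113R cells varied widely for the first of these, and 3 AAVS1 libraries at 0 bound its level only by their depth. ALX4 averaged between 5.97 and 13.5 CPM in the 4 knockout lines, beside 3.37 CPM in eS31 K113R cells.

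Of the 40 genes that were lower, 7 held whichever library was left out, and 6 of these are among the named genes. GDI2, which extracts Rab GTPases from membranes, lies on chromosome 10 at 5765223-5842132 and was the most abundant of them. It had 180, 161 and 234 CPM in eS31 K113R cells and 405, 353 and 394 CPM in AAVS1 cells. The log2 fold change was -1.0025 ± 0.15 (adjusted p = 1.62e-05), with no overlap. Its means in the 4 knockout lines, 346 to 375 CPM, were close to AAVS1, and eS31 K113R cells were below them by a log2 fold change of -0.92 (adjusted p = 2.63e-06). CHN1, a GTPase-activating protein for Rac, had 34.4, 65.2 and 54.5 CPM in eS31 K113R cells and 107, 159 and 127 CPM in AAVS1 cells (log2 fold change -1.35 ± 0.23, adjusted p = 8.58e-05). The groups did not overlap.

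CADM1, an adhesion molecule of the immunoglobulin family, lies on chromosome 11 at 115169218-115504957. It had 2.29, 4.26 and 1.53 CPM in eS31 K113R cells and 49.9, 43.9 and 37.9 CPM in AAVS1 cells. Its log2 fold change was -3.94 ± 0.58 (adjusted p = 1.14e-05). Levels were also low in GCN2 KO cells, at 2.05 CPM, and in ZNF598 KO cells, at 2.15 CPM, whereas RNF25 KO and RNF25 GCN2 DKO cells averaged 14.7 and 15.4 CPM. ATG16L2, a relative of the autophagy protein ATG16L1, had 2.29, 1.83 and 0.767 CPM in eS31 K113R cells and 10.3, 10.5 and 12.8 CPM in AAVS1 cells (log2 fold change -2.72 ± 0.61, adjusted p = 0.00382). The pseudogenes PDCL3P4 and AC120036.2 also fell, with log2 fold changes of -4.49 ± 0.73 and -3.63 ± 0.64 (adjusted p = 4.70e-05 and 0.000174). PDCL3P4 had 0.764, 1.83 and 0.767 CPM in eS31 K113R cells and 36.1, 30.4 and 17.98 CPM in AAVS1 cells. How the counting shared reads between a pseudogene and its parent gene is not given in the sources used here, and both values are uncertain.

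**Figure D2:**
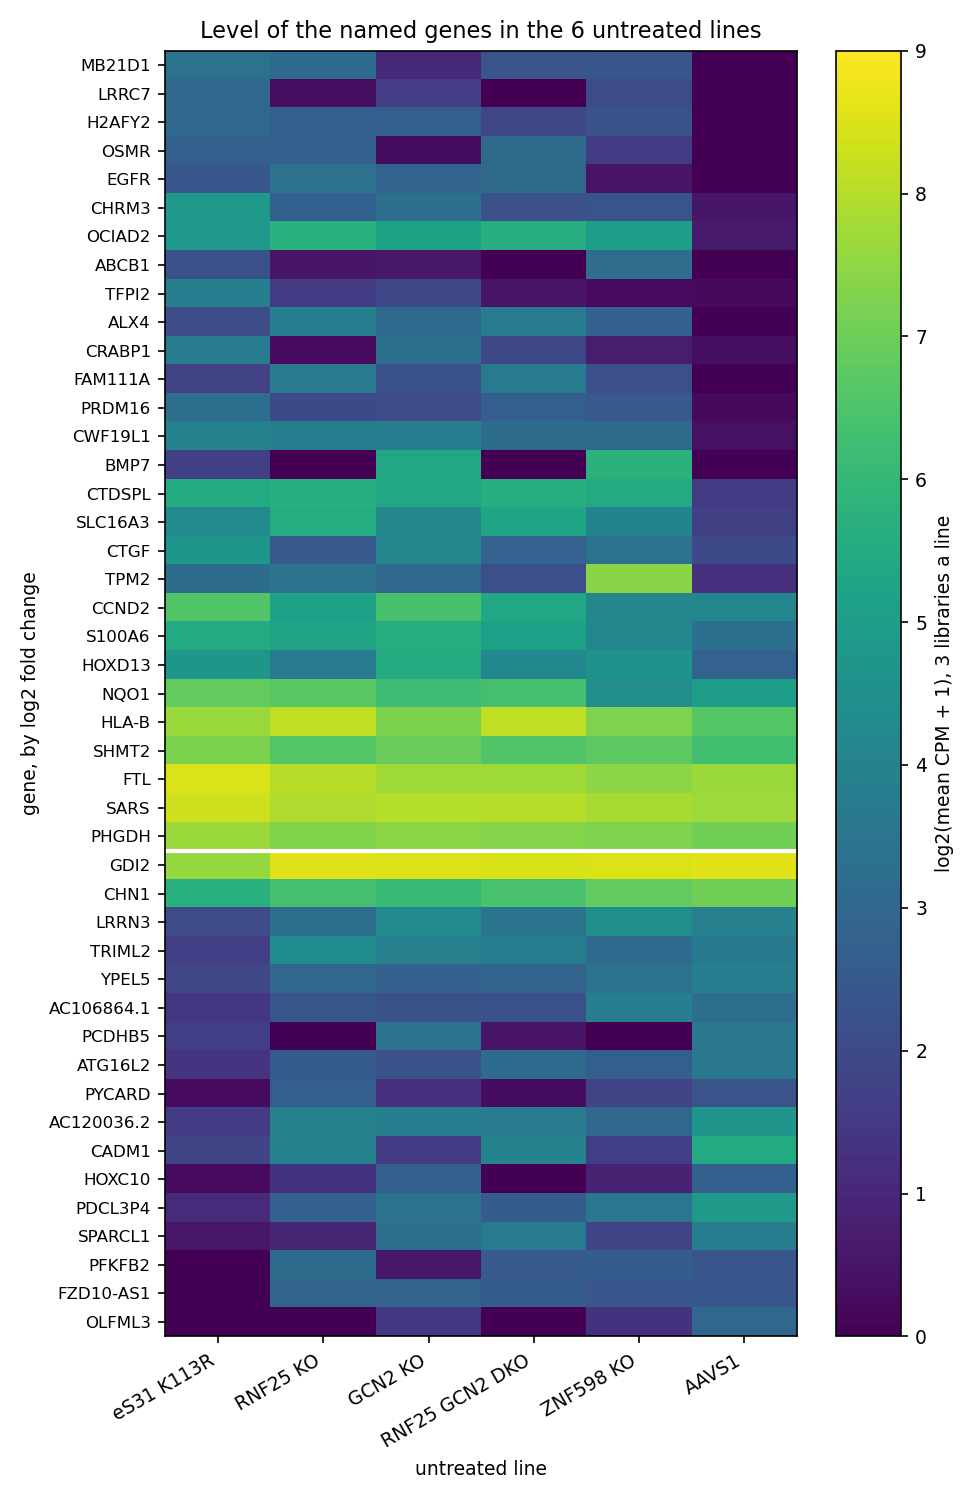
Mean level of the named passing genes in the 6 untreated lines, as log2(mean CPM + 1) over 3 libraries a line, with genes that were higher in eS31 K113R above the white line and those that were lower below it. AAVS1, at the right, was darkest for OCIAD2 and CTDSPL, and eS31 K113R, at the left, for FZD10-AS1.

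The other 23 named genes lost their call when some single library was left out. Among those that were higher, EGFR, the epidermal growth factor receptor, had 8.41, 2.44 and 2.30 CPM in eS31 K113R cells and 0 in each AAVS1 library. Against a floor of 3 counts over the AAVS1 libraries it was 6.66-fold higher (adjusted p = 0.00604, and 0.0725 without eS31 K113R replicate 1). OSMR, a subunit of the oncostatin M receptor, had 3.06, 5.48 and 8.44 CPM in eS31 K113R cells and 0 in each AAVS1 library (adjusted p = 0.0104, and 0.0632 without AAVS1 replicate 2). ABCB1, the drug efflux pump P-glycoprotein, passed at 0.0387 and lost its call without any 1 of the libraries other than eS31 K113R replicate 3 (adjusted p 0.0936 to 0.153). FAM111A, a protease of the replication fork, passed at 0.0374 and was lost without eS31 K113R replicate 2 (0.336) or any AAVS1 library (0.0928 to 0.156). BMP7, a growth factor, passed at 0.0428 and was lost without any library but eS31 K113R replicate 2 (0.0917 to 0.207). BMP7 averaged 2.24 CPM in eS31 K113R cells and 0 in AAVS1 cells, but 41.0 CPM in GCN2 KO and 54.1 CPM in ZNF598 KO cells.

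Among those that were lower, 3 had no read in eS31 K113R cells. PFKFB2, which sets the level of a glycolytic activator, had 0 in each eS31 K113R library and 5.16, 3.99 and 3.85 CPM in AAVS1 cells. Against a floor of 3 counts over the eS31 K113R libraries it was 6.004-fold lower (adjusted p = 0.0107, and 0.0531 and 0.0667 without eS31 K113R replicates 1 and 2). FZD10-AS1, a transcript antisense to FZD10, had 0 in each eS31 K113R library, 3.44, 4.49 and 5.14 CPM in AAVS1 cells, and 4.45 to 6.71 CPM on average in the 4 knockout lines. Against the same floor it was 6.30-fold lower (adjusted p = 0.0107, and 0.0529 and 0.0660 without eS31 K113R replicates 1 and 2). OLFML3, a secreted matrix protein, was 8.71-fold lower against that floor, at an adjusted p of 0.0173. It was lost without any of 4 libraries, the 3 of eS31 K113R and AAVS1 replicate 1 (0.0675 to 0.0909).

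The remaining lower genes were of low level, 25.0 CPM or less in every library. LRRN3, a neuronal leucine-rich repeat protein, had 0.764, 4.26 and 4.60 CPM in eS31 K113R cells and 12.1, 13.5 and 17.3 CPM in AAVS1 cells (adjusted p = 0.00484, and 0.0725 without eS31 K113R replicate 1). SPARCL1, a matrix protein, passed at 0.0058 and was lost without eS31 K113R replicate 2 (0.0626) or AAVS1 replicate 1 (0.0613). HOXC10, a homeobox factor, passed at 0.0241 and was lost without eS31 K113R replicate 1 (0.118) or 3 (0.116) or AAVS1 replicate 2 (0.115). TRIML2 passed at 0.0191 and was lost without eS31 K113R replicate 1 (0.142) or 3 (0.107). YPEL5 passed at 0.0390 and was lost without eS31 K113R replicate 1 (0.108) or 2 (0.273) or AAVS1 replicate 1 (0.199). AC106864.1, the host transcript of the miR-302 cluster that marks pluripotent cells, passed at 0.0222 and was lost without eS31 K113R replicate 1 (0.143) or 2 (0.190) or AAVS1 replicate 2 (0.0507) or 3 (0.100). On the opposite strand, 40.6% of its exon length is shared with LARP7. PCDHB5, a clustered protocadherin, passed at 0.0488 and was lost without any library but eS31 K113R replicate 3 (0.0793 to 0.243). PYCARD, the inflammasome adaptor ASC, passed at 0.0451, was lost without any library but AAVS1 replicate 2 (0.0572 to 0.188), and shares 59.7% of its exon length with its antisense gene.

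The substitution lies in the protein made from RPS27A, and the level of its mRNA was measured directly. RPS27A had 10641, 4812 and 9802 CPM in eS31 K113R cells and 9978, 5918 and 9740.5 CPM in AAVS1 cells. The groups overlapped, with replicate 2 lowest in both, and the log2 fold change was -0.02 ± 0.29 (adjusted p = 0.989). A substitution of 1 residue need not alter the mRNA level, so this value does not check the genotype. UBB, a polyubiquitin gene, was not tested, as it had 4 counts over all 45 libraries.

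Genes of the pathway that acts on stalled ribosomes did not pass. GCN1 had 132, 96.3 and 110 CPM in eS31 K113R cells and 104, 124 and 107 CPM in AAVS1 cells. EIF2AK4 had 32.9, 51.2 and 39.9 CPM in eS31 K113R cells and 42.2, 45.4 and 44.3 CPM in AAVS1 cells. ZNF598 had 98.6, 83.5 and 67.5 CPM in eS31 K113R cells and 74.9, 56.9 and 55.9 CPM in AAVS1 cells, with an adjusted p of 0.368 for a log2 fold change of 0.42 ± 0.19. In each of these 3 genes the groups overlapped. RNF14, a ligase that works with RNF25, had a log2 fold change of -0.23 ± 0.41 (adjusted p = 0.909). RNF25 itself was not tested, with 0, 6 and 4 counts in eS31 K113R cells and 2 in each AAVS1 library. Of the 38 tested genes of the RNF25 and ribosome collision list, 0 passed, at a median log2 fold change of 0.02 against 0.03 for all tested autosomal genes.

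Of 41 tested genes of the integrated stress response, 3 were higher, 0 were lower and 38 did not pass. The share that was higher was 7.32% of the list and 1.2% of all tested autosomal genes. The median log2 fold change of the list was 0.41, with 33 of 41 values above 0, against 0.03 for all tested autosomal genes. SHMT2, which makes glycine from serine in mitochondria, had 154, 152 and 135 CPM in eS31 K113R cells and 63.7, 56.4 and 110 CPM in AAVS1 cells (log2 fold change 0.94 ± 0.20, adjusted p = 0.00214). PHGDH, the first enzyme of serine synthesis, had 164, 213 and 214 CPM in eS31 K113R cells and 128, 139 and 139 CPM in AAVS1 cells (log2 fold change 0.54 ± 0.15, adjusted p = 0.0387). SARS, now SARS1, the cytosolic seryl-tRNA synthetase, had 238, 378 and 335 CPM in eS31 K113R cells and 222, 152 and 236 CPM in AAVS1 cells (log2 fold change 0.65 ± 0.18, adjusted p = 0.0346). The groups did not overlap in any of the 3, though by little for SARS.

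These 3 calls were not firm. Without AAVS1 replicate 2 the adjusted p was 0.0511 for SHMT2, 0.0981 for PHGDH and 0.275 for SARS, and the list's median fell to 0.29. Then 1 member passed, the cystine transporter gene SLC7A11, at a log2 fold change of 1.17 (adjusted p = 0.00683). PHGDH also lost its call without eS31 K113R replicate 2 (0.2003) or 3 (0.183) or AAVS1 replicate 1 (0.144) or 3 (0.0715). SARS also lost it without eS31 K113R replicate 2 (0.270) or 3 (0.127). With the replicate block, 6 members were higher: these 3 with CARS, STC2 and SLC7A11 (adjusted p = 0.0255, 0.0188 and 0.0156). That is 14.6% of the list, against 1.89% higher among all tested autosomal genes in the same fit. The central genes of the response did not pass. ATF4 had 618, 539 and 648 CPM in eS31 K113R cells and 621, 453 and 577 CPM in AAVS1 cells, and DDIT3, the factor CHOP, had 29.8, 15.8 and 11.5 CPM in eS31 K113R cells and 23.2, 10.98 and 21.2 CPM in AAVS1 cells. Both overlapped. CHAC1, a glutathione-degrading enzyme, had at most 2.30 CPM in eS31 K113R cells and 3.44 CPM in AAVS1 cells, too low for a small difference to be detectable.

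Among 19 tested NRF2 targets, NQO1 and FTL were higher, 10.5% against 1.2% of all tested genes, and 17 did not pass, at a list median of 0.29, or 0.14 without AAVS1 replicate 2. FTL, the light chain of the iron store ferritin, had 423, 313 and 338 CPM in eS31 K113R cells and 208, 133 and 261 CPM in AAVS1 cells (log2 fold change 0.84 ± 0.19, adjusted p = 0.00438). It lost its call without eS31 K113R replicate 1 (0.0632) or AAVS1 replicate 2 (0.107). With the replicate block, SLC7A11, FTH1 and TXNRD1 passed too, making 5, or 26.3% against 1.89%. Among 15 antigen presentation genes, HLA-B, which presents peptides on the cell surface, was higher, with 259, 121 and 222 CPM in eS31 K113R cells and 103, 78.8 and 114 CPM in AAVS1 cells (log2 fold change 1.02 ± 0.25, adjusted p = 0.00853). The call was lost without eS31 K113R replicate 1 (0.130) or AAVS1 replicate 2 (0.0963). HLA-B alone was 6.67% of the list, against 1.2% higher among all tested genes. With the block, HLA-C passed as well. Reads of these near-identical genes may have been split among them, and each is uncertain.

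Of 33 tested genes of the cytoskeleton and adhesion, 3 were higher, 9.09% against 1.2% of all tested genes: CTGF, S100A6 and TPM2. TPM2, a tropomyosin, had 7.64, 4.26 and 12.3 CPM in eS31 K113R cells and 1.72, 0.998 and 1.28 CPM in AAVS1 cells (adjusted p = 0.022). It was lost without eS31 K113R replicate 1 (0.0540) or 3 (0.183) or AAVS1 replicate 2 (0.127) or 3 (0.0652). With the block, CALD1 and TAGLN, which bind actin in contractile cells, also passed, making 5, or 15.2% against 1.89%. Of 20 genes of glycolysis and lactate, the lactate exporter SLC16A3 was higher, with 9.17, 30.5 and 16.1 CPM in eS31 K113R cells and 1.72, 0 and 5.14 CPM in AAVS1 cells (adjusted p = 0.00331). It was lost without eS31 K113R replicate 2 (0.0795) or AAVS1 replicate 2 (0.0604). With the block ENO2, a glycolytic enolase, joined it. The share of the list that was higher was 5% against 1.2% of all tested genes, and 10% against 1.89% with the block.

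The smaller counts were as follows, and a list with 1 gene called gives a share that 1 gene decides. Of 17 immediate early genes, CTGF was higher, and EGR1 joined it with the block (adjusted p = 0.0402). Of 17 interferon-stimulated genes, MB21D1 was higher. Of 19 HOX genes, HOXD13 was higher and HOXC10 lower, and HOXA7 was higher with the block. Of 18 imprinted genes, TFPI2 was higher. Of 2 tested clustered protocadherins, PCDHB5 was lower. The list medians were 0.41, 0.49, -0.06, 0.26 and -1.01 in that order. The share that was higher was 5.88% of the immediate early and of the interferon-stimulated genes, 5.26% of the HOX and 5.56% of the imprinted genes. Among all tested autosomal genes, 1.2% were higher and 0.376% lower.

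No gene passed in the lists of ribosomal proteins of the small subunit (32 tested) and large subunit (46), ribosome biogenesis (36), translation factors (29), p53 targets (21), proteasome subunits (31), cholesterol synthesis (20), endoplasmic reticulum chaperones (24), heat shock (18), autophagy and lysosome (22), S phase (25), G2 and M phase (23) and azacytidine metabolism (20). Their medians lay between -0.16 and 0.16 on the log2 scale. No gene passed either among 4 ubiquitin genes, 14 neural and synaptic genes, 6 genes of globin and blood regulation or 1 epithelial gene tested. With the block, RPL22 and its paralog RPL22L1 passed as lower (adjusted p = 0.0221 and 0.0156). In that fit 0.828% of all tested autosomal genes were lower. RPL22 had 367, 254 and 323 CPM in eS31 K113R cells and 467, 383 and 414 CPM in AAVS1 cells, with no overlap. Also with the block, UBTF and PSMC3 passed as higher and RRS1 as lower. Without AAVS1 replicate 2, the p53 target PMAIP1 passed as higher (adjusted p = 0.00622).

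**Figure D3:**
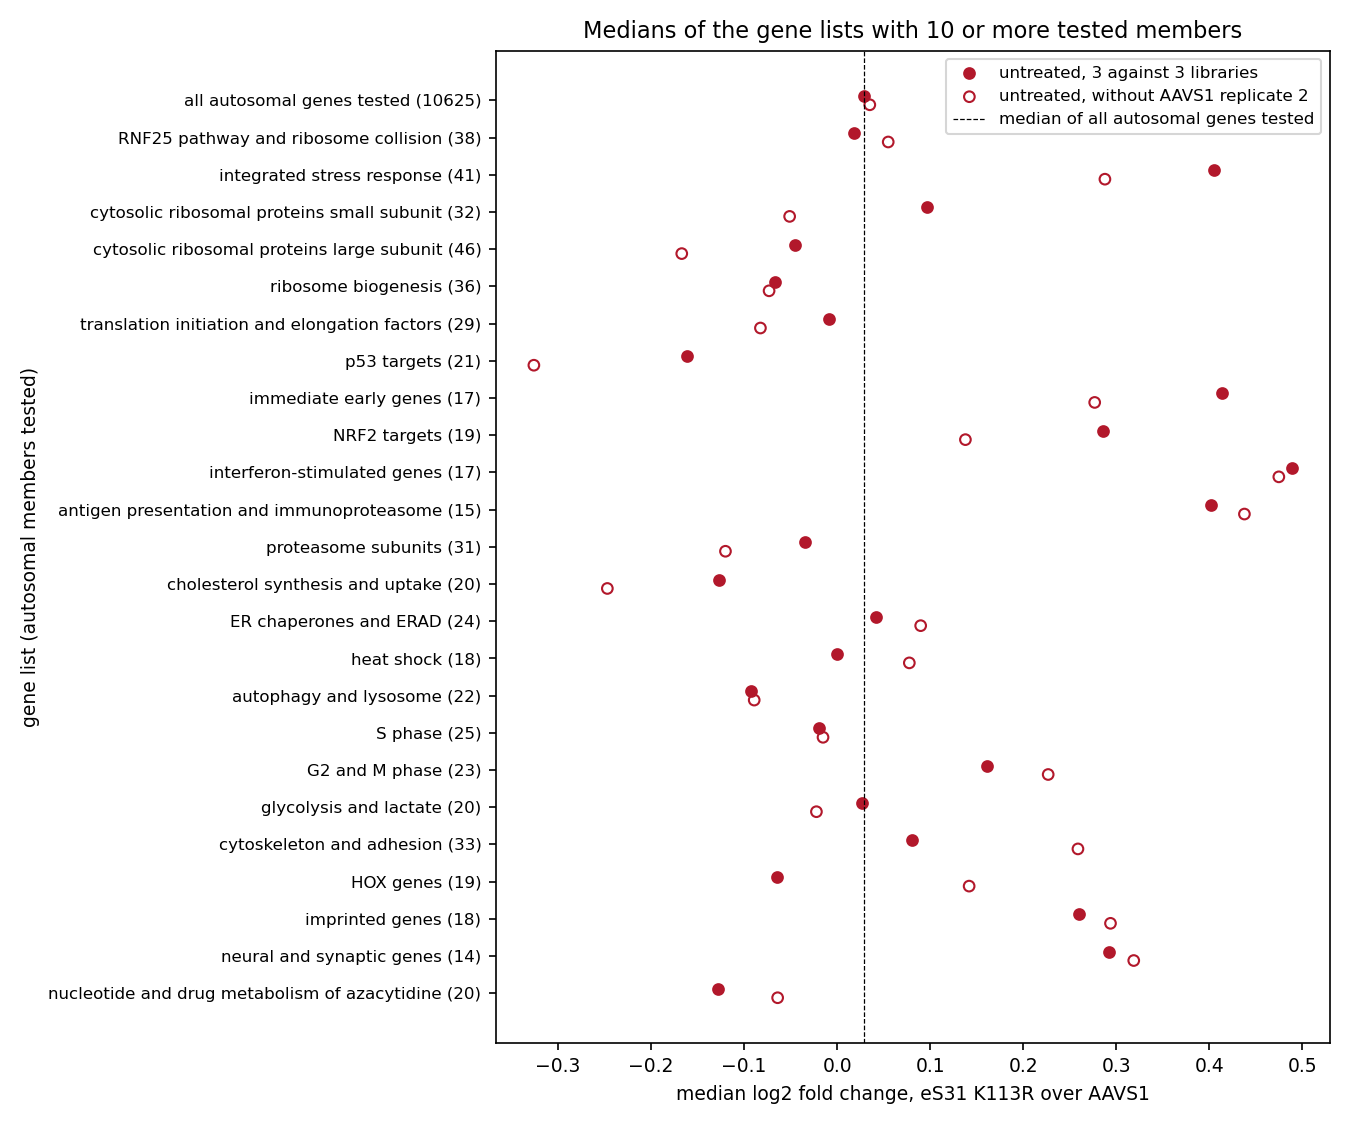
Median log2 fold change, eS31 K113R over AAVS1, of the gene lists with 10 or more tested members, with all libraries (filled) and without AAVS1 replicate 2 (open), beside the median of all autosomal genes tested (dashed line). The integrated stress response median was 0.41 with all libraries and 0.29 without that replicate, and the p53 targets lay lowest at -0.16 and -0.33.

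Most haematopoietic, epithelial and endothelial markers were at 0 in both lines, whereas the mesenchymal and neural lists had higher summed levels. Of 11 autosomal haematopoietic markers, 8 were at 0 in all 6 libraries, among them CD34 and MPO, although KBM-7 is a leukaemia line. Their summed level, nearly all TAL1, was 33.7 to 44.2 CPM in eS31 K113R cells and 16.2 to 22.8 CPM in AAVS1 cells. TAL1, a transcription factor of blood progenitors, did not pass (adjusted p = 0.0503) but did with the block (0.0314). All 5 endothelial and 5 of 8 epithelial markers, with EPCAM and CDH1, were at 0. The mesenchymal list, led by VIM, summed to 559 to 848 CPM in eS31 K113R cells and 500 to 879 CPM in AAVS1 cells. The neural list, led by NES, summed to 177 to 235 CPM in eS31 K113R cells and 109 to 197 CPM in AAVS1 cells, with GFAP and NEUROD1 at 0. NES did not pass (adjusted p = 0.212) but did with the block (0.0144). Germline genes that DNA methylation silences summed to 2.50 to 4.91 CPM in eS31 K113R cells and 4.88 to 13.2 CPM in AAVS1 cells, and 0 of them passed.

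The same 2 lines were compared in 6 other libraries, treated with azaC. There 249 autosomal genes passed (2.34%), 188 higher and 61 lower in eS31 K113R cells. Of the 168 genes that passed untreated, 93 passed again in the same direction, which is 55.4% of the untreated and 37.3% of the azaC set, and 0 passed in the opposite direction. The sign was the same for 165 of the 168. The exceptions were ARSK, MTG1 and TOMM70, which are named here because of these values. Across the 168 genes the log2 fold changes had a Pearson correlation of 0.902, and across all tested autosomal genes 0.524. These are descriptions, as genes are not replicates and the lines are the same. Of the 46 named genes, 30 passed again.

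The genes described above repeated unevenly. The log2 fold change in azaC libraries was 3.55 ± 0.34 for CTDSPL, 2.71 ± 0.26 for CCND2 and 1.35 ± 0.21 for NQO1, each passing. GDI2 was at -0.94 ± 0.15 and CADM1 at -2.88 ± 0.55, both passing. ATG16L2 was at -0.42 (adjusted p = 0.832), TPM2 at 0.96 (0.396) and FAM111A at 2.24 (0.214), and these did not pass. The loss of FZD10-AS1 and PFKFB2 was seen again, with 0 CPM on average in azaC-treated eS31 K113R cells and 5.80 and 6.85 CPM in azaC-treated AAVS1 cells.

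**Figure D4:**
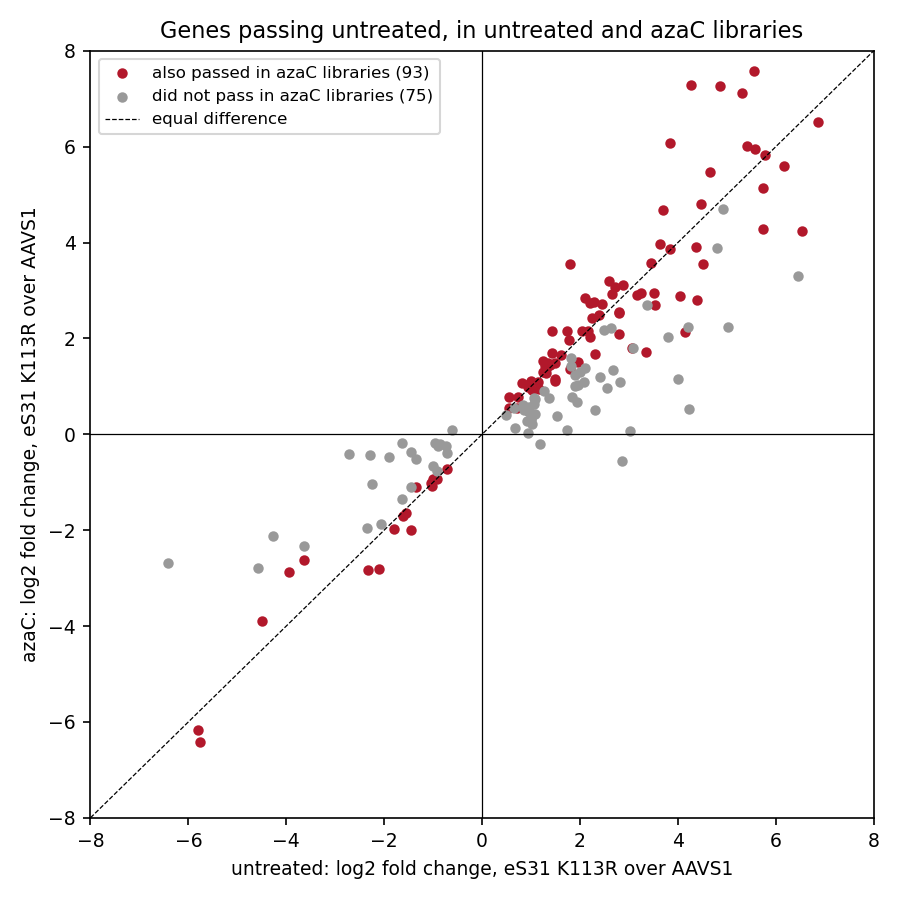
Log2 fold change of eS31 K113R over AAVS1 for the 168 genes that passed untreated, in untreated libraries on the horizontal axis and in azaC libraries on the vertical axis, with the 93 genes that passed again in red and the other 75 in grey. All but 3 genes lie in the quadrants of equal sign.

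The azaC libraries also gave levels against the 4 knockout lines with no library shared with the untreated comparison. These contrasts were chosen after the data had been seen. For eS31 K113R, 374 autosomal genes (3.52%) differed from the mean of the 4 azaC-treated knockout lines. These included, in the same direction, 64 of the 168 untreated genes, which is 38.1% of the untreated set and 17.1% of that set. For AAVS1, 97 genes (0.913%) differed from those lines, and 39 of the 168 did so in the direction opposite to the untreated difference, 23.2% of the untreated set and 40.2% of that set. Counting these directions, 54 of the 168 passed in the eS31 K113R contrast alone, 29 in the AAVS1 contrast alone, 10 in both and 75, or 44.6%, in neither. The 2 contrasts share the knockout libraries. GDI2 passed in the first alone and CTDSPL in the second alone.

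For 1 autosomal gene, 0.00941% of those tested, the difference between the lines itself differed between azaC-treated and untreated cells. SESN2, a stress-induced regulator of nutrient signalling and an ATF4 target, had 65.7, 83.5 and 74.4 CPM in untreated eS31 K113R cells and 58.5, 49.9 and 62.3 CPM in untreated AAVS1 cells. The groups did not overlap, but the untreated log2 fold change of 0.40 ± 0.18 did not pass (adjusted p = 0.369). With azaC the means were 616 CPM in eS31 K113R cells and 177 CPM in AAVS1 cells, a log2 fold change of 1.80 ± 0.17, and the difference of the differences was 1.40 ± 0.25 (adjusted p = 0.012). Of the 41 tested genes in the integrated stress response list, 23 were higher and 2 lower in eS31 K113R cells with azaC. Among all 10625 tested autosomal genes, 188 were higher and 61 lower in that comparison. For no other member of the list did the change in the difference between lines pass.

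Passing genes were spread over the autosomes. Their share of tested genes was between 0.612% on chromosome 17 and 2.65% on chromosome 7. In 273 bins of 10 Mb with at least 10 tested genes, the bin medians lay between -0.28 and 0.32 on the log2 scale, 155 bins held no passing gene and the fullest held 5. The chromosome medians lay between -0.03 and 0.20, highest on the GC-rich chromosome 19. Without AAVS1 replicate 2, the median of chromosome 19 fell to 0.02. Only 4 pairs of passing genes lay within 100 kb of each other: YPEL5 and LBH, which differed in direction, AC091493.1 and CDYLP1, CWF19L1 and SNORA12, and PRRT2 and SEZ6L2.

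**Figure D5:**
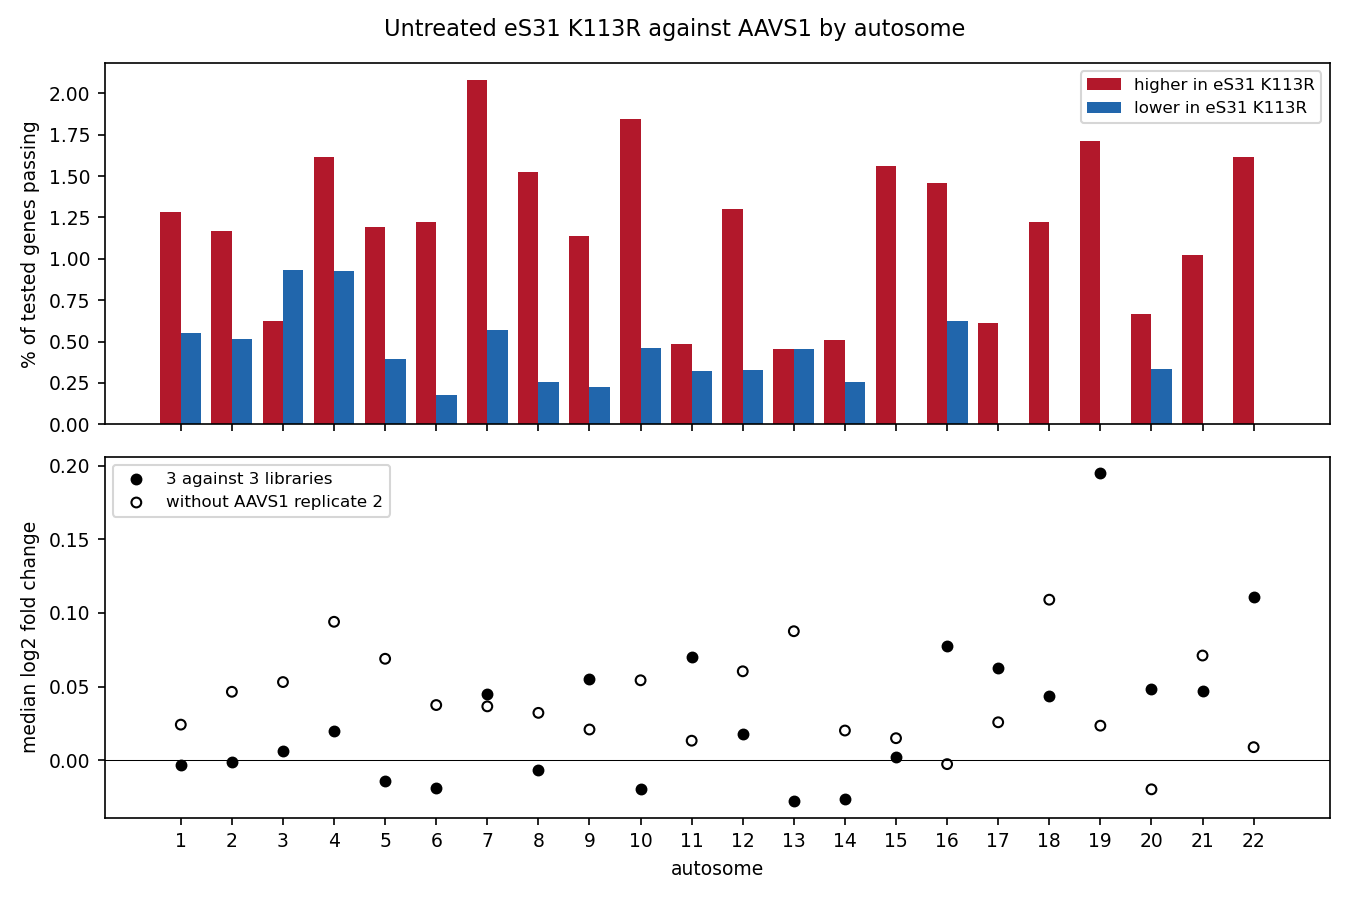
Share of tested genes that passed as higher (red) or lower (blue) in eS31 K113R on each autosome, above, and median log2 fold change with all libraries (filled) and without AAVS1 replicate 2 (open), below. The chromosome 19 median was 0.20 with all libraries and 0.02 without that replicate.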

How the data were processed

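The deposited values are raw counts per gene in 45 libraries, for which the submitters' processing notes name STAR 2.7.10b, HTSeq 0.9.1 and GRCh38. Per the labels' protocols, a Maxwell RSC kit was used for RNA and the CORALL mRNA-Seq V2 kit for libraries of polyA RNA. The sources used here do not state the annotation release, the strand setting or whether molecular identifiers were used, so genes that overlap on opposite strands may share reads. Replicates are labelled only as biological replicates, and p-values measure the spread between these libraries.

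With edgeR 4.0.16 in R 4.3.3, filterByExpr (minimum count 10) retained 11078 genes, with TMM normalization of the library sizes. A quasi-likelihood model with a mean for each of 15 groups was fitted to all 45 libraries, p-values were two-sided and adjusted by Benjamini and Hochberg over all tested genes, with a threshold of 0.05 on the adjusted p. Autosomal genes were then described, by positions from GENCODE 29, which 58503 of 60676 identifiers matched. Levels are CPM on the scaled library sizes, and log2 CPM used a prior count of 2. Where a group had no count, fold changes used a floor of 3 counts over it. This floor leaves out the counting error of the other group. The 95% intervals cover counting error only. Promoter sequences are from RefSeq.

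Same-numbered untreated eS31 K113R and AAVS1 libraries deviated together, with correlations across genes of 0.212, 0.266 and 0.138, so the numbers were taken to pair the samples and blocked values are given where they change a call. In the azaC libraries the correlations were 0.0896, 0.277 and 0.258. No libraries within a group were copies of each other, with a smallest chi-square per degree of freedom of 3.75 in the 6 libraries.

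The comparison, the 28 gene lists and the rule for named genes were chosen with earlier results of these data known. Named were passing genes among the 15 largest changes in each direction without overlap, the 5 of smallest adjusted p in each direction, every passing list member, and 14 genes of the ubiquitin and stress pathways whatever their result. Some of these genes are not reported here. Alternatives used DESeq2 1.42.0, limma-voom (limma 3.58.1), other scaling, no filter, GC-corrected offsets, fewer libraries, and each library left out in turn.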

Additional observations from a re-analysis of the deposited data

Results flagged for a closer look

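SESN2 was the autosomal gene at which the difference between eS31 K113R and AAVS1 cells itself differed between azaC-treated and untreated libraries, by 1.40 on the log2 scale (edgeR interaction test, adjusted p = 0.012). Of the 10625 tested autosomal genes, 396 had an unadjusted p under 0.05 in that test, a share smaller than the threshold itself.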

How the results depend on the processing

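No named gene reversed under any alternative. For untreated eS31 K113R against AAVS1 (168 autosomal genes passing), other scaling, no filter, DESeq2, limma-voom and GC-corrected offsets gave 169 to 191 genes. The genes were not all the same. Of the 168, 166 remained with other scaling, 164 with DESeq2, 147 with GC-corrected offsets, 136 without the filter and 134 with limma-voom. With limma-voom, 12 named genes lost their call, among them PFKFB2, FZD10-AS1, OLFML3, SPARCL1 and SLC16A3. All 168 remained with the replicate block, which gave 289. GC-corrected offsets gave 114 higher and 55 lower, and with the block 306 genes, 185 higher and 121 lower. The fit to the 6 libraries alone gave 36, the fit to the 18 untreated libraries 101, a test against 1.5-fold 63, and eS31 K113R replicate 1 alone against AAVS1, without the doubtfully labelled replicates, 57, of which 53 were among the 168. Each of these uses fewer samples or a stricter test. Leaving out single libraries gave 100 to 205 genes untreated and 166 to 200 with azaC (249 with all libraries), and 59 of the 168 held in every such fit. The replicate block gave 425 genes for the azaC comparison, 254 for eS31 K113R and 212 for AAVS1 against the untreated knockout lines, and 608 and 163 for the same contrasts with azaC. The azaC correlations by number were not all above 0.1. Without the filter, 2 genes rather than 1 passed for the change of the difference with azaC. The cause of these shifts was not tested. At 28 to 46 counts for a median gene, small differences in low genes were not detectable.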

Other observations

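Other passing genes, chosen here after their values were seen, had well-known roles. How their calls fared without single libraries is not given here. Of all 168 passing genes, 59 held in every such fit. MGMT, which repairs alkylated guanine in DNA, averaged 24.3 ± 3.14 CPM in eS31 K113R cells and 2.33 ± 1.45 CPM in AAVS1 cells (SD, n = 3 each), and it was also low in ZNF598 KO cells, at 4.69 CPM. MET, the receptor of hepatocyte growth factor, averaged 14.3 ± 6.42 CPM in eS31 K113R cells and 44.0 ± 7.95 CPM in AAVS1 cells. GLUL, glutamine synthetase, averaged 26.1 ± 4.78 CPM in eS31 K113R cells and 49.4 ± 11.7 CPM in AAVS1 cells, and 54.7 CPM in ZNF598 KO cells.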
